A study of Mus musculus with 63 samples.

Results

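miR-155 is a single microRNA (miRNA) gene whose hairpin precursor gives 2 mature products, mmu-miR-155-5p from its 5′ arm and mmu-miR-155-3p from its 3′ arm (miR-155-5p and miR-155-3p from here on). Both arms were taken by name from a table of small RNA read counts with 2110 miRNA loci, in which each arm had 1 locus, so that 2 loci of 2110 are described. The libraries came from young adult male C57BL/6 mice without any transgene, in which the ureter of 1 kidney was not tied (sham), tied for 2 days (UUO-2), tied for 7 days (UUO-7), or tied for 7 days and then reimplanted for 14 days of recovery (R-UUO, reversible unilateral ureteric obstruction). Each condition had 4 mice, and each kidney was sorted into 4 populations: F4/80hi macrophages (Macs, CD45+), PDGFR-β+ stromal cells (CD45-CD31-), CD31+ endothelial cells (ECs, CD45-) and proximal tubular cells that bind the lectin LTL (PT cells, CD45-CD31-). The 16 mice gave 63 libraries, since 1 of the 4 UUO-7 libraries of PDGFR-β+ cells had been left out by the study as an outlier, and the mice sequenced were those nearest to the mean of an injury marker in their condition.

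In the immune system miR-155-5p is a classic inflammatory miRNA. Its host transcript is switched on in macrophages by Toll-like receptor ligands and cytokines, in part through NF-κB and AP-1, and the mature miRNA lowers brakes on that signalling such as Socs1 and the phosphatase SHIP1 (Inpp5d). As with most hairpins, one arm is usually loaded into Argonaute as the guide while the other is mostly degraded, and for miR-155 the 5p arm is the usual guide.

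The hairpin lies on the plus strand of the mouse genome at chr16:84714140-84714204 (GRCm38), inside exon 2 of both annotated transcripts of the long noncoding RNA gene Mir155hg, so it is exonic in a gene that codes for no protein. RefSeq sequences (GRCm38.p6) for both arms are shown because the counts are counts of reads from these stretches, with the seed, bases 2 to 8 from the 5′ end and the part that pairs with target mRNAs, in capitals:
miR-155-5p: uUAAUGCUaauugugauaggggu
miR-155-3p: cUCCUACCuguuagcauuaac
The 23 bases of miR-155-5p lie at chr16:84714143-84714165 and the 21 bases of miR-155-3p at chr16:84714182-84714202. The seeds of the arms differ, and among 1679 mature mouse miRNA names in the same RefSeq table no other name carried either seed, so neither arm has a seed family in which it can be grouped. In the precursor, the 5p arm takes positions 4 to 26 and the 3p arm positions 43 to 63, as the capitals show:
Mir155 hairpin: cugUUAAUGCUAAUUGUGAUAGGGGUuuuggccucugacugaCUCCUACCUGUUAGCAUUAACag

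The libraries held 616565 to 10819385 counted reads, with medians of 7577134.5 in ECs, 4263852 in PDGFR-β+ cells, 3018038.5 in Macs and 1043053.5 in PT cells, so a low level was measured least precisely in PT cells. Of 14 loci of known cell type markers, 11 were higher in every library of their own cell type than in every other library and 13 had their highest median there. The 3 Mac markers were among the 11. Levels are given as CPM, read counts scaled to a common library total, after TMM scaling over all 63 libraries, with mean ± SD. Over all libraries mmu-miR-155-5p had 16890 reads and mmu-miR-155-3p had 487.

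Macs already carried miR-155-5p in sham kidneys and rose at day 7. The 4 sham libraries stood at 38.6, 91.5, 99.0 and 99.9 CPM, and the UUO-2 libraries at 56.0, 71.6, 78.9 and 99.1 CPM, so that these groups overlapped. The UUO-7 libraries stood at 146, 154, 168 and 254 CPM, all above every sham and UUO-2 library. In R-UUO the values were 82.7, 121, 132 and 168 CPM, which overlapped both sham and UUO-7. The mean was 82.3 ± 29.3 CPM for sham mice, 76.4 ± 17.9 for UUO-2, 180 ± 49.8 for UUO-7 and 126 ± 35.0 for R-UUO (SD, n = 4 each).

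edgeR's quasi-likelihood test was run separately for every cell type, with p-values adjusted over all loci tested and called at an adjusted p below 0.05 with a fold change above 1.5. In Macs the log2 fold change of miR-155-5p from sham to UUO-7 was 1.29 ± 0.29 (SE; adjusted p = 0.00133) and from UUO-2 to UUO-7 it was 1.20 ± 0.29 (adjusted p = 0.00339). The share of all 457 loci called in these comparisons was 43.1% and 30.6%. From sham to UUO-2 the value was 0.09 ± 0.29 (95% CI -0.52 to 0.69, edgeR adjusted p = 0.834), while 27.6% of loci were called. R-UUO stood between: 0.67 ± 0.29 against sham (95% CI 0.07 to 1.28, adjusted p = 0.0761) and -0.62 ± 0.29 against UUO-7 (95% CI -1.22 to -0.01, adjusted p = 0.125), neither called, with 31.9% and 19.9% of loci called. The fall from UUO-7 to R-UUO was called when libraries were scaled by total reads alone (-0.84, adjusted p = 0.0341) or when low loci were kept (-0.70, adjusted p = 0.0261). Sham library 1, at 38.6 CPM, lay far below the other sham libraries, and without it UUO-2 was 0.33 lower than sham on the log2 scale (log2 fold change -0.33, adjusted p = 0.337).

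**Figure D1:**
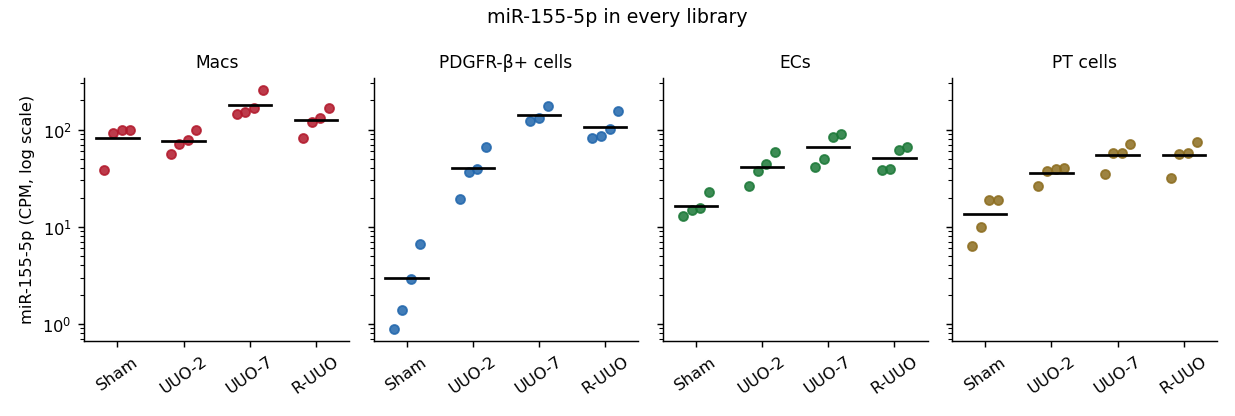
miR-155-5p in each of the 63 libraries (points; CPM after TMM scaling, log axis) by condition in the 4 cell types, with the group mean as a bar. The sham PDGFR-β+ libraries, at 0.876 to 6.60 CPM, are the lowest in the plot. The UUO-7 PDGFR-β+ libraries, at 124 to 173 CPM, lie beside those of Macs under this scaling.

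PDGFR-β+ cells, a population of pericytes and fibroblasts, started from the lowest level and moved furthest. In sham they held 0.876, 1.38, 2.88 and 6.60 CPM (2 to 15 reads a library). At UUO-2 the values were 19.4, 36.9, 39.2 and 65.9 CPM, and no UUO-2 library overlapped with sham. At UUO-7 the 3 libraries held 124, 131 and 173 CPM, above every UUO-2 library. After reversal the libraries still held 81.8, 85.5, 102 and 156 CPM, 1 within the UUO-7 range, 3 below it and all above every sham library. Group means were 2.94 ± 2.59 (n = 4), 40.3 ± 19.2 (n = 4), 143 ± 26.8 (n = 3) and 106 ± 34.1 (n = 4).

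Against sham, miR-155-5p in PDGFR-β+ cells rose by a log2 fold change of 3.87 ± 0.49 at UUO-2 (14.7-fold, edgeR adjusted p = 9.44e-05), 5.63 ± 0.53 at UUO-7 (49.4-fold, adjusted p = 6.63e-07) and 5.20 ± 0.51 after reversal (36.8-fold, adjusted p = 6.43e-07). By absolute change it ranked 10th, 20th and 11th of the 477 loci tested. At UUO-2 6.29% of those loci were called, while at UUO-7 and after reversal 48.2% and 41.7% were. From UUO-2 to UUO-7 it rose by a further 1.75 ± 0.44 (adjusted p = 0.00533, 33.8% of loci called). From UUO-7 to R-UUO the difference was -0.43 ± 0.43 (95% CI -1.34 to 0.49, adjusted p = 0.653, 3.98% of loci called). The sham level rested on 36 reads in all 4 libraries, so the exact size of the fold changes was limited by counting.

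ECs, which line the vessels, showed a smaller rise. The sham libraries held 12.9, 15.0, 15.5 and 22.7 CPM, and the UUO-2 libraries 26.4, 37.2, 44.0 and 58.6 CPM, with no overlap. At UUO-7 the values were 41.7, 49.4, 83.3 and 91.2 CPM, and in R-UUO they were 38.7, 39.0, 61.5 and 65.8 CPM. Every injured or recovering EC library was above every sham one, whereas UUO-2, UUO-7 and R-UUO overlapped each other. Means were 16.5 ± 4.28, 41.5 ± 13.5, 66.4 ± 24.5 and 51.2 ± 14.4 CPM (n = 4 each).

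In ECs the log2 fold change against sham was 1.48 ± 0.33 at UUO-2 (edgeR adjusted p = 0.0275), 2.13 ± 0.34 at UUO-7 (adjusted p = 0.000338) and 1.75 ± 0.33 after reversal (adjusted p = 0.00133). Only 1.71% of 469 loci were called at UUO-2, against 11.5% at UUO-7 and 16.8% after reversal. The UUO-2 call was lost, with values from 1.36 to 1.51, when any one of 6 of its 8 libraries was left out (UUO-2 replicates 1, 2 and 4 and sham replicates 2, 3 and 4), and at the depth of the smallest library (1.01, adjusted p = 0.196). UUO-7 exceeded UUO-2 by 0.65 ± 0.33 (95% CI -0.04 to 1.34, adjusted p = 0.457) and R-UUO differed from UUO-7 by -0.38 ± 0.32 (95% CI -1.06 to 0.30, adjusted p = 0.484). These last comparisons had 1.92% and 1.07% of loci called.

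PT cells, the resorbing epithelium of the nephron, held 6.32, 10.0, 18.7 and 18.8 CPM in sham, from 7 to 20 reads a library. The UUO-2 libraries held 26.4, 37.3, 39.8 and 40.2 CPM, the UUO-7 libraries 34.8, 57.4, 58.1 and 71.1 CPM, and the R-UUO libraries 31.6, 56.3, 57.9 and 75.3 CPM. As in ECs, all sham libraries were below all others and the other groups overlapped. Means were 13.5 ± 6.32, 35.9 ± 6.47, 55.4 ± 15.1 and 55.3 ± 18.0 CPM (n = 4 each). The log2 fold change against sham was 1.37 ± 0.35 at UUO-2 (edgeR adjusted p = 0.0136), 1.94 ± 0.35 at UUO-7 (adjusted p = 0.000374) and 2.02 ± 0.35 after reversal (adjusted p = 0.000348), where 19.1%, 43% and 38.8% of 330 loci were called. The UUO-2 call was lost under scaling by total reads alone (1.19, adjusted p = 0.064). UUO-7 against UUO-2 gave 0.57 ± 0.32 (95% CI -0.11 to 1.25, adjusted p = 0.314, 4.24% of loci called), and R-UUO against UUO-7 gave 0.08 ± 0.32 (95% CI -0.59 to 0.74, adjusted p = 0.955, 1.52% of loci called).

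Across the 4 cell types, 10 of the 12 comparisons of miR-155-5p with sham were called, all as rises. With TMM scaling and the low-count filter none of the 4 comparisons of R-UUO with UUO-7 was called by edgeR, nor was any by DESeq2 (the settings that called the fall in Macs are given above), and 1 had an unadjusted p below 0.05, that in Macs. The comparisons with sham within a cell type share the sham libraries, and those against UUO-7 share the UUO-7 libraries. In sorted bulk samples a rise in every cell and a rise in a fraction of the cells cannot be told apart.

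**Figure D2:**
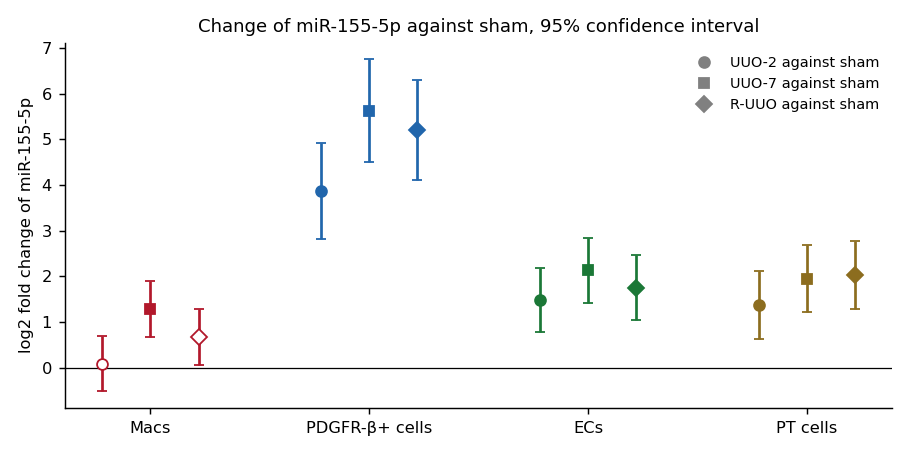
Log2 fold change of miR-155-5p against sham in each cell type (symbols, with 95% confidence intervals; filled where called). The 3 values of PDGFR-β+ cells, from 3.87 to 5.63, lie above all others, and in Macs only UUO-7, at 1.29, was called.

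Whether these changes differed between cell types was tested directly, as the difference of a log2 change in 1 edgeR fit of all 63 libraries over 671 loci. The rise in PDGFR-β+ cells exceeded that in Macs by 3.92 ± 0.54 at UUO-2 (adjusted p = 3.25e-07), by 4.52 ± 0.55 at UUO-7 (adjusted p = 2.47e-09) and by 4.61 ± 0.54 after reversal (adjusted p = 8.38e-10), while 8.79%, 20.4% and 21.2% of loci were called in these tests. It exceeded the rise in ECs by 2.50 ± 0.54 (adjusted p = 0.00839), 3.65 ± 0.55 (adjusted p = 1.21e-06) and 3.60 ± 0.54 (adjusted p = 7.07e-07), with 1.49%, 27.3% and 23.8% of loci called. It exceeded the rise in PT cells by 2.40 ± 0.58 (adjusted p = 0.00287), 3.60 ± 0.58 (adjusted p = 1.45e-06) and 3.16 ± 0.57 (adjusted p = 1.29e-05), with 11.6%, 27% and 25% of loci called. All 9 differences were called, and the UUO-2 difference from ECs was not at the depth of the smallest library (2.82, adjusted p = 0.111).

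Between Macs and the other 2 cell types the differences were smaller. The change in Macs was below that in PT cells by 1.53 ± 0.52 at UUO-2 (adjusted p = 0.0476, 11% of loci called) and by 1.45 ± 0.52 in R-UUO (adjusted p = 0.0422, 17.9% of loci called), but at UUO-7 the difference of -0.92 ± 0.51 was not called (adjusted p = 0.206, 27.4% of loci called). Both calls were lost with DESeq2 (-1.01, adjusted p = 0.248, and -1.23, adjusted p = 0.0901), with scaling by total reads alone (-0.97, adjusted p = 0.322, and -1.03, adjusted p = 0.227), without any one of the 8 mice at UUO-2 (-1.63 to -0.996), and without any one of 6 of the 8 in R-UUO (-1.56 to -1.26). Macs against ECs gave -1.42 ± 0.49 at UUO-2 (adjusted p = 0.0653), -0.87 ± 0.48 at UUO-7 (adjusted p = 0.21) and -1.01 ± 0.48 after reversal (adjusted p = 0.17), none called in edgeR, with 6.71%, 18.2% and 13.3% of loci called. Without sham mouse 1, whose Mac library was the low one, the first and the third of these were called (-1.81, adjusted p = 0.0167, and -1.46, adjusted p = 0.0433).

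The changes in ECs and PT cells could not be separated: the differences were -0.10 ± 0.53 (95% CI -1.16 to 0.95), -0.05 ± 0.51 (95% CI -1.08 to 0.98) and -0.44 ± 0.52 (95% CI -1.49 to 0.61) at UUO-2, UUO-7 and in R-UUO, with 8.94%, 16.1% and 12.4% of loci called. The change from UUO-7 to R-UUO was compared in all 6 pairs of cell types and 0 were called by edgeR or DESeq2, with 0 at an unadjusted p below 0.05. Few loci were called in those 6 tests: 1.49% for Macs against PDGFR-β+ cells, 0.298% for Macs against ECs, 1.94% for Macs against PT cells, 0.447% and 0.894% for PDGFR-β+ cells against ECs and PT cells, and 0.298% for ECs against PT cells.

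The order of the cell types therefore changed with injury, and it was tested within each condition. In sham, Macs stood above PDGFR-β+ cells by a log2 difference of 4.85 ± 0.43 (28.9-fold, edgeR adjusted p = 1.02e-14), above ECs by 2.31 ± 0.36 (4.96-fold, adjusted p = 1.53e-07) and above PT cells by 2.62 ± 0.39 (6.16-fold, adjusted p = 6.76e-08). PDGFR-β+ cells stood below ECs by 2.54 ± 0.42 (log2 difference -2.54, adjusted p = 1.26e-06) and below PT cells by 2.23 ± 0.45 (log2 difference -2.23, adjusted p = 3.53e-05). ECs and PT cells did not differ beyond their spread (0.31 ± 0.39, 95% CI -0.47 to 1.09, adjusted p = 0.495). The share of loci called was 61.4%, 56.5% and 52.2% for Macs against PDGFR-β+ cells, ECs and PT cells, 38.7% and 53.7% for PDGFR-β+ cells against ECs and PT cells, and 56.9% for ECs against PT cells.

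At UUO-2 the non-macrophage populations had drawn level. Macs exceeded PDGFR-β+ cells by 0.93 ± 0.35 (adjusted p = 0.0172), ECs by 0.89 ± 0.35 (adjusted p = 0.0247) and PT cells by 1.10 ± 0.35 (adjusted p = 0.0075), all called in edgeR. The first was lost without UUO-2 mouse 3 (0.84, adjusted p = 0.0563) and the second without UUO-2 mouse 1 (0.93, adjusted p = 0.0505). PDGFR-β+ cells differed from ECs by -0.05 ± 0.35 (95% CI -0.74 to 0.65) and from PT cells by 0.16 ± 0.36 (95% CI -0.55 to 0.88), and ECs from PT cells by 0.21 ± 0.36 (95% CI -0.51 to 0.93). In the same order of pairs, 59.5%, 55.7%, 51.7%, 28.8%, 50.1% and 53.8% of loci were called.

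At UUO-7 PDGFR-β+ cells no longer differed from Macs beyond their spread under TMM scaling. Macs were higher by 0.34 ± 0.37 (95% CI -0.40 to 1.07, edgeR adjusted p = 0.441), and in R-UUO by 0.24 ± 0.34 (95% CI -0.43 to 0.92, adjusted p = 0.563). Under scaling by total reads alone Macs were higher in both, by 1.22 (adjusted p = 0.00722) and 1.06 (adjusted p = 0.0109). That scaling moved every locus up in Macs against PDGFR-β+ cells, by 0.91 at UUO-7 and 0.83 after reversal on the log2 scale. Without UUO-7 mouse 3, which had no PDGFR-β+ library, and with the TMM factors computed anew, Macs were also called higher at UUO-7 (0.88, adjusted p = 0.0479). The difference in the change from sham, given above, was called under both scalings.

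PDGFR-β+ cells were now above ECs, by 1.10 ± 0.36 at UUO-7 (adjusted p = 0.0112) and 1.06 ± 0.34 after reversal (adjusted p = 0.0129), and above PT cells, by 1.37 ± 0.37 (adjusted p = 0.00143) and 0.93 ± 0.35 (adjusted p = 0.0217), the reverse of their place in sham. The R-UUO difference from PT cells was lost with DESeq2 (0.74, adjusted p = 0.0684), under scaling by total reads alone (0.64, adjusted p = 0.141) and without mouse 1 or 4 (0.68, adjusted p = 0.157, and 0.77, adjusted p = 0.106). The difference from ECs was lost at UUO-7 without mouse 4 or 5 (0.97, adjusted p = 0.0838, and 0.66, adjusted p = 0.259) and in R-UUO without mouse 1 (0.91, adjusted p = 0.0664). At the depth of the smallest library neither R-UUO difference was called (0.83 against ECs, adjusted p = 0.0744, and 0.50 against PT cells, adjusted p = 0.228), and in a fit of ECs and PDGFR-β+ cells alone the UUO-7 difference was not (0.93, adjusted p = 0.0561). Macs were above ECs by 1.44 ± 0.34 (adjusted p = 0.000335) and 1.30 ± 0.35 (adjusted p = 0.0011), and above PT cells by 1.71 ± 0.35 (adjusted p = 3.78e-05) and 1.17 ± 0.35 (adjusted p = 0.00424), the last of which was lost without R-UUO mouse 4 (0.82, adjusted p = 0.0871). ECs and PT cells again did not differ beyond their spread under TMM scaling (0.26 ± 0.34 at UUO-7 and -0.13 ± 0.35 after reversal), though under scaling by total reads alone ECs were lower in R-UUO (-0.92, adjusted p = 0.0302). At UUO-7 the share of loci called, in the order of pairs used for sham, was 56.9%, 54.2%, 47.2%, 39.9%, 49% and 52.2%, and in R-UUO it was 52%, 52.2%, 47.4%, 30.4%, 49.9% and 53.8%.

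Averaged over the 4 conditions, Macs exceeded PDGFR-β+ cells by 1.59 ± 0.19 (adjusted p = 3.88e-11), ECs by 1.49 ± 0.17 (adjusted p = 4.49e-11) and PT cells by 1.65 ± 0.18 (adjusted p = 6.12e-12), with 68.7%, 64.7% and 62.3% of loci called. The averages for PDGFR-β+ cells against ECs (-0.11 ± 0.18) and PT cells (0.06 ± 0.20) and for ECs against PT cells (0.17 ± 0.18) were not called in edgeR, with 40.2%, 63.2% and 68.6% of loci called, and those of PDGFR-β+ cells pool conditions in which the difference had opposite signs. By 1 of the 2 measures of enrichment that the study combined (the other, soft clustering, was not run here), a mean z score above a fixed bound for a cell type among the libraries of a condition, miR-155-5p passed in Macs in sham (1.28) and at UUO-2 (1.20) but not at UUO-7 (1.07) or in R-UUO (0.97). With libraries scaled by total reads alone it passed in all 4 (1.33, 1.51, 1.30 and 1.25). For PDGFR-β+ cells the mean z score went from -1.27 in sham and -0.43 at UUO-2 to 0.70 at UUO-7 and 0.61 after reversal.

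**Figure D3:**
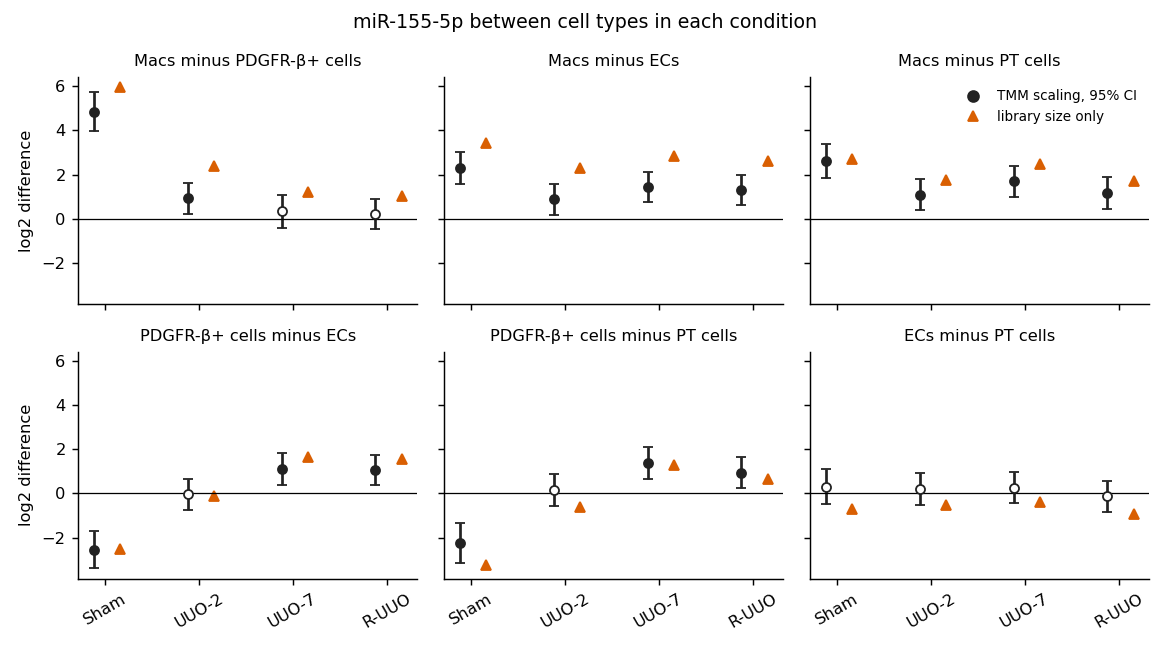
Log2 difference of miR-155-5p between each pair of cell types in each condition under TMM scaling (circles with 95% confidence intervals; filled where called) and under scaling by total reads alone (triangles, value only). Macs against PDGFR-β+ cells falls from 4.85 in sham to 0.24 in R-UUO under TMM, and the triangles lie higher wherever Macs come first.

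miR-155-3p was far scarcer and was read in counts of single libraries. In sham it had 0, 0, 4 and 9 reads in Macs (0 to 2.69 CPM), 1 read in 1 EC library, and 0 reads in all 4 libraries of PDGFR-β+ cells and of PT cells. A count of 0 allows up to 3 reads, which over the 4 sham libraries together corresponds to 0.227 CPM in PDGFR-β+ cells and 0.685 CPM in PT cells. Intervals and limits of this kind cover counting error only.

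After injury reads of the 3p arm appeared in every cell type. In PDGFR-β+ cells there were 0, 0, 8 and 11 reads at UUO-2, 11, 21 and 28 at UUO-7 and 18, 19, 38 and 47 after reversal, and the last groups held 2.85 to 13.5 CPM and 4.75 to 9.40 CPM. Pooled over libraries, UUO-7 stood at 28.1 times, R-UUO at 30.8 times and UUO-2 at 6.20 times the limit that the sham libraries allow. These ratios leave out the counting error of the reads after injury. Both later rises were called by edgeR (adjusted p = 0.00353 and 0.00422), and that at UUO-2 was not (adjusted p = 0.0905), though it was with DESeq2 (adjusted p = 0.014). With 0 reads in sham, the 3p arm passed the low-count filter here only through libraries after injury.

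In Macs the 3p arm had 2, 3, 14 and 23 reads at UUO-2, 10, 13, 18 and 22 at UUO-7 and 5, 9, 15 and 51 after reversal. The log2 fold change against sham was 2.67 ± 1.06 at UUO-7 (edgeR adjusted p = 0.0456) and 2.90 ± 1.05 after reversal (adjusted p = 0.0367), both called, against 1.25 ± 1.09 at UUO-2 (adjusted p = 0.418). The R-UUO call was lost without R-UUO replicate 4, which held the 51 reads (1.45, adjusted p = 0.32), and without sham replicates 1 (2.19, adjusted p = 0.116), 3 (2.40, adjusted p = 0.104) or 4 (2.82, adjusted p = 0.0811). The UUO-7 call was lost without any one of 7 of its 8 libraries, with values from 1.90 to 2.73, and was kept without sham replicate 2 (4.03, adjusted p = 0.0108). In ECs there were 14, 24 and 24 reads in the UUO-2, UUO-7 and R-UUO libraries together, 28.0 (95% CI 4.25 to 1182), 32.6 (5.32 to 1341) and 28.7 (4.68 to 1179) times the sham level of 1 read. UUO-7 and R-UUO were called in edgeR (adjusted p = 0.0358 and 0.0207) and UUO-2 was not (adjusted p = 0.156). With 1 read in sham, the 3p arm passed the low-count filter in ECs only through libraries after injury. The UUO-7 call was lost without any one of the sham libraries or UUO-7 replicate 2, with values from 3.64 to 5.81, and the R-UUO call without R-UUO replicate 4 (3.43, adjusted p = 0.0549) or sham replicate 2 (4.43, adjusted p = 0.0608).

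In PT cells the 3p arm was too scarce to be tested. It had 0 reads in all sham and UUO-2 libraries, 2, 2, 4 and 6 at UUO-7, and 0, 2, 4 and 5 in R-UUO. The pooled level was 1.86 times the sham limit at UUO-7 and 3.15 times after reversal. These ratios rest on 14 and 11 reads, whose own counting error is left out. Between the later conditions (UUO-7 against UUO-2, R-UUO against UUO-7), 0 of the 6 comparisons of the 3p arm in the other cell types were called by edgeR or DESeq2, with 0 at an unadjusted p below 0.05. In ECs, Macs and PDGFR-β+ cells 1.92%, 30.6% and 33.8% of all loci were called between UUO-7 and UUO-2. Between R-UUO and UUO-7 the shares were 1.07%, 19.9% and 3.98%. For the comparisons of the 3p arm with sham, the shares are those given for miR-155-5p in the same cell type.

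**Figure D4:**
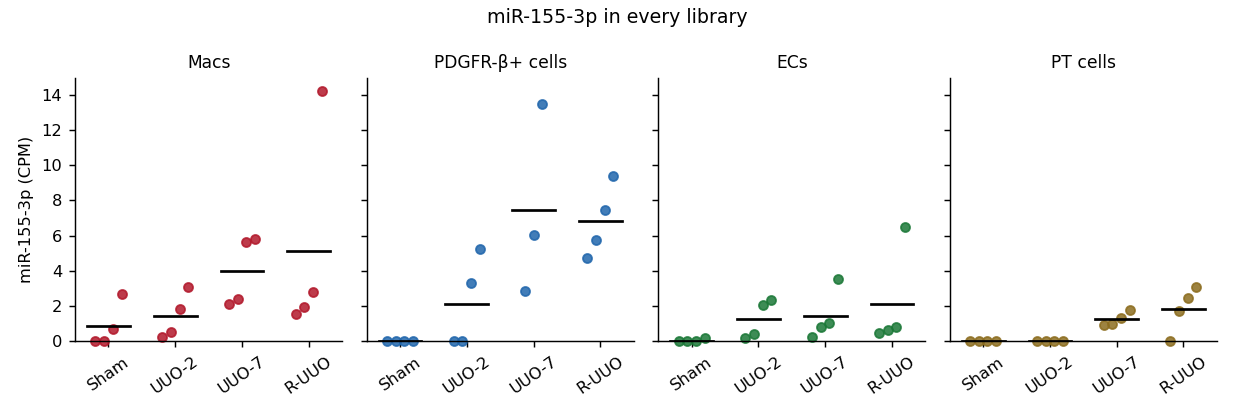
miR-155-3p in each of the 63 libraries (points; CPM after TMM scaling) by condition in the 4 cell types, with the group mean as a bar. Sham libraries of PDGFR-β+ cells and PT cells are all at 0, and single libraries at 14.2 CPM in Macs and 6.47 CPM in ECs of R-UUO stand apart from the rest of their groups.

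Both arms were counted in the same library, so the share of reads from each does not depend on how libraries are scaled. Pooled over the conditions, the 3p arm made up 5.16% of miR-155 reads in PDGFR-β+ cells (201 of 3895 reads, 95% Wilson CI 4.51% to 5.90%), 2.13% in Macs (198 of 9294, CI 1.86% to 2.44%), 2.06% in ECs (63 of 3056, CI 1.61% to 2.63%) and 2.21% in PT cells (25 of 1132, CI 1.50% to 3.24%). These intervals cover counting error only and leave out the spread between libraries. The pooled share is also given by condition, as a description only. Listed from sham through both times of obstruction to R-UUO, it was 0%, 3.68%, 4.43% and 6.14% in PDGFR-β+ cells, 0.778%, 1.85%, 2.07% and 3.47% in Macs, 0.246%, 2.87%, 2.09% and 2.36% in ECs, and 0%, 0%, 2.44% and 3.61% in PT cells. The 0% of sham PDGFR-β+ cells rests on 36 reads (CI up to 9.64%), those of PT cells on 57 reads in sham (CI up to 6.31%) and 196 at UUO-2 (CI up to 1.92%), and 1 Mac library of R-UUO held 51 of the 198 Mac reads. In the R-UUO PDGFR-β+ libraries the share ran from 5.26% to 6.81%, and over all libraries of that cell type from 0% to 8.25%. Tested per mouse, as the difference in log2((5p + 0.5)/(3p + 0.5)) between cell types of the same animal with exact sign-flip permutation, Macs exceeded PDGFR-β+ cells by 1.68 (n = 15 mice, 2-sided p = 0.0154, adjusted over 6 pairs 0.0923), and PDGFR-β+ cells differed from ECs by -1.27 (p = 0.0438, adjusted 0.102) and from PT cells by -0.83 (p = 0.0512, adjusted 0.102). None of the 6 pairs passed after adjustment, and 2 had an unadjusted p below 0.05. With a pseudocount of 1 Macs against PDGFR-β+ cells (1.86, adjusted p = 0.0238), Macs against PT cells (1.25, adjusted p = 0.0238) and PDGFR-β+ cells against ECs (-1.31, adjusted p = 0.0494) passed in the same permutation test, and without UUO-2 mouse 2 the first and the last of these passed as well (2.09, adjusted p = 0.00293, and -1.68, adjusted p as low as 0.00879). With the pseudocount this ratio follows depth wherever the 3p arm had no read, as in 20 of the 63 libraries, where it ran from 2.32 (2 reads of the 5p arm) to 9.67 (408 reads). The tests between cell types keep these libraries, among them every sham library of PDGFR-β+ cells and of PT cells. They therefore cannot separate the use of the arms from depth, with either pseudocount. Between conditions within a cell type, 7 of 20 comparisons held a group with no 3p read in any library and are not reported. In the other 13, 0 had an unadjusted p below 0.05 in exact permutation tests (lowest 0.0857), where the smallest p that 4 against 4 libraries allow is 0.0286. Some of these 13 still held libraries without a 3p read. There were 3 in sham ECs, 2 in sham Macs, 2 in UUO-2 PDGFR-β+ cells and 1 in R-UUO PT cells. The lowest p came from ECs against sham, so such tests cannot separate the use of the arms from depth either.

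Because miR-155 is abundant in leukocytes, its level was set beside miRNAs of haematopoietic cells in the same libraries. PDGFR-β+ cells, ECs and PT cells were sorted as CD45-, a gate meant to exclude leukocytes, and how fully it did so was not measured here. The summed CPM of the 3 Mac markers (miR-142a-3p, miR-142a-5p and miR-223-3p) ran from 14703 to 41962 in Mac libraries. In PDGFR-β+ cells that sum ran from 53.0 to 171 in sham, 283 to 329 at UUO-2, 273 to 698 at UUO-7 and 121 to 205 after reversal, with no marker at 0 in any library. In ECs it ran from 20.1 to 60.2 in sham and from 58.4 to 192 in the other conditions, and in PT cells from 73.1 to 106 in sham and from 102 to 281 in the others, with miR-142a-3p at 0 in 1 sham library of ECs and 2 of PT cells. In Macs the sum was lower after injury, from 34889 to 41962 in sham and from 17975 to 21209 at UUO-7, where miR-155-5p was higher. The summed markers were thus higher after obstruction in the 3 CD45- populations, and their part in the rise of miR-155-5p was not tested.

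The sizes were not alike. In R-UUO PDGFR-β+ cells miR-142a-5p stood at 0.695% of its Mac level, miR-142a-3p at 0.982% and miR-223-3p at 1.11%, while miR-155-5p stood at 84.3% of its Mac level. At UUO-7 the values were 1.95%, 7.25% and 5.59% against 79.1% for miR-155-5p. These percentages hold after TMM scaling. Scaled by total reads alone, mean miR-155-5p at UUO-7 was 141 CPM in PDGFR-β+ cells and 328 CPM in Macs. In R-UUO these means were 88.2 and 184 CPM. From UUO-7 to R-UUO miR-142a-5p and miR-142a-3p fell in PDGFR-β+ cells (log2 fold change -1.28, edgeR adjusted p = 0.032, and -1.97, adjusted p = 0.0173). The mean of miR-223-3p went from 70.9 ± 65.6 CPM to 12.2 ± 5.19 CPM. The change of miR-155-5p, -0.43, was not called. Its confidence interval, -1.34 to 0.49, holds the -1.28 of miR-142a-5p but not the -1.97 of miR-142a-3p. Both marker values have errors of their own, which this comparison leaves out. Whether miR-155-5p changed differently from these markers was not tested.

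In ECs and PT cells the 3 markers stood at 0.0660% to 1.04% of their Mac level and miR-155-5p at 16.4% to 54.4%, also after TMM scaling. In sham PDGFR-β+ cells, in contrast, miR-155-5p stood at 3.57% of its Mac level. There its ratio to miR-142a-5p was 16.9 times that in Macs, to miR-142a-3p 14.9 times and to miR-223-3p 10.0 times. With the markers in that order, the UUO-2 ratios of these cells were 46.5, 31.4 and 37.3 times those in Macs. The UUO-7 ratios were 43.6, 11.8 and 18.7 times, and those after reversal 120, 81.8 and 76.3 times. The ratio therefore did not rise steadily, and for miR-142a-3p the UUO-7 value was below the sham value. Leukocytes other than F4/80hi Macs were not sorted, and the ratio in them was not measured.

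**Figure D5:**
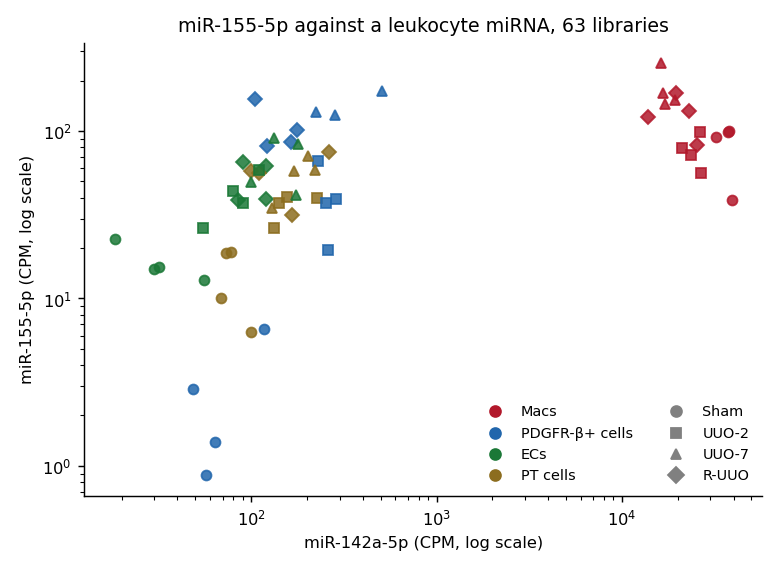
miR-155-5p against miR-142a-5p in the 63 libraries (CPM after TMM scaling, both axes log; colour for cell type, symbol for condition). Macs lie at 13745 CPM of miR-142a-5p or more, the other libraries at 507 CPM or less. Under this scaling miR-155-5p of UUO-7 and R-UUO PDGFR-β+ cells reaches the height of Macs.

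miRNAs that are known to be induced by, or to act on, Toll-like receptor and NF-κB signalling were read beside miR-155, from a list of 13 names with 18 loci. In PDGFR-β+ cells 14 of these loci were tested, and 6 were called higher and 0 lower at UUO-2, 8 higher and 1 lower at UUO-7, and 7 higher and 1 lower in R-UUO against sham. Over all loci 6.29%, 48.2% and 41.7% were called in these comparisons. Their median log2 fold changes were 0.57, 1.64 and 1.36, beside 0.15, 0.50 and 0.40 over all loci tested. miR-146b-5p, a feedback inhibitor of the pathway, rose by 2.80, 5.16 and 5.02 in the 3 comparisons (edgeR adjusted p = 3.96e-07, 5.9e-10 and 4.32e-10), and miR-21a-5p, an injury-induced and profibrotic miRNA, by 3.26, 4.97 and 4.73 (adjusted p = 1.53e-07, 5.9e-10 and 6.4e-10). miR-132-3p and miR-212-3p, which share a precursor transcript, rose by 1.93 and 2.86 at UUO-7, and miR-187-3p was the member that fell in R-UUO (-1.17, adjusted p = 0.00315) and at UUO-7 (-0.78, adjusted p = 0.0407).

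In Macs the same list was split. Of 15 loci tested, 4 were called higher and 5 lower at UUO-2, 4 higher and 5 lower at UUO-7, and 6 higher and 3 lower in R-UUO, while 27.6%, 43.1% and 31.9% of all loci were called. The list had medians of 0.31, -0.01 and 0.45 beside 0.15, 0.22 and 0.12 over all loci. miR-147-3p, a Toll-like receptor induced miRNA, rose by 4.55 at UUO-2, 2.10 at UUO-7 and 3.19 after reversal (edgeR adjusted p = 5.92e-09, 1.24e-05 and 1.32e-07), and miR-132-3p by 3.05, 3.63 and 3.82. miR-146a-5p, a close relative of miR-146b-5p, fell by 1.11 and 1.19 at UUO-2 and UUO-7 (log2 fold change -1.11 and -1.19, adjusted p = 0.000158 and 4.46e-05), along with miR-125a-5p, miR-125b-5p and let-7e-5p. At UUO-2, then, miR-147-3p, miR-132-3p, miR-212-3p and miR-21a-5p were already up in Macs while miR-155-5p was at 0.09.

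In ECs 2, 6 and 5 of 15 listed loci were called higher at UUO-2, UUO-7 and in R-UUO and 0, 0 and 1 lower, where 1.71%, 11.5% and 16.8% of all loci were called. miR-147-3p rose by 4.06, 4.57 and 4.25 (edgeR adjusted p = 0.00261, 0.000192 and 0.000341) and miR-21a-5p by 2.17, 2.41 and 2.45. In PT cells 5, 7 and 7 of 13 were higher and 0, 1 and 1 lower, where 19.1%, 43% and 38.8% of all loci were called, with the loci of miR-9-5p and miR-132-3p and miR-21a-5p among those that rose. The median changes were 0.40, 0.58 and 0.59 in ECs and 0.25, 0.83 and 0.78 in PT cells, where the medians over all loci lay between -0.05 and 0.04. From UUO-7 to R-UUO edgeR called 4 of 15 higher in Macs and 2 of 14 in PDGFR-β+ cells, where 19.9% and 3.98% of all loci were called. It called 0 in ECs and PT cells, where 1.07% and 1.52% of all loci were called.

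The 8 leukocyte miRNAs of the other list were called higher against sham in PDGFR-β+ cells in 2, 4 and 3 of 7 tested loci at UUO-2, UUO-7 and in R-UUO (0, 1 and 2 lower), in ECs in 1, 3 and 2 of 5 (none lower), and in PT cells in 2, 2 and 3 of 4 (none lower). In Macs 3, 3 and 2 of 8 were higher and 0, 2 and 2 lower. The shares of all loci called are those given for the previous list. The median log2 fold changes of the list were 0.93, 1.58 and 0.08 in PDGFR-β+ cells, 1.38, 2.12 and 1.18 in ECs, 1.17, 1.03 and 1.20 in PT cells and 0.00, 0.41 and 0.23 in Macs. miR-150-5p, a lymphocyte miRNA, rose in Macs by 1.46, 2.36 and 1.57, and miR-142a-5p fell there at UUO-7 and after reversal (-0.93 and -0.78). In PDGFR-β+ cells miR-511-3p, from an intron of the macrophage receptor gene Mrc1, fell at UUO-7 and after reversal (-2.77, adjusted p = 0.0369, and -3.44, adjusted p = 0.00933), as miR-511-5p did in R-UUO (-5.35, adjusted p = 0.00153).

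Of the 670 other loci past the filter over all libraries, those whose log2 CPM followed miR-155-5p most closely over the 16 group means were miR-21a-5p (Pearson r = 0.84), miR-155-3p (r = 0.80), miR-148b-3p (r = 0.80), miR-186-5p (r = 0.79) and miR-21a-3p (r = 0.79). The 3p arm was second of 670 by Pearson r and among the first 5 by Spearman rho (0.83), but not among the first 5 by Pearson r under scaling by total reads alone (r = 0.80). Within the 15 PDGFR-β+ libraries the closest were miR-21a-5p (r = 0.98), miR-21a-3p (0.95), miR-146b-5p (0.95), miR-582-3p (0.94) and miR-199b-5p (0.94), and miR-155-3p ranked 25th of 476 (r = 0.85). Within the 16 Mac libraries they were miR-677-3p (r = 0.82), miR-677-5p (0.81), miR-191-5p (0.80), miR-28a-3p (0.80) and miR-146b-5p (0.79), with miR-155-3p 9th of 456 (r = 0.77). These points share libraries, depth and conditions, so the values describe likeness over 16, 15 and 16 points and carry no test.

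The levels show where the likeness ends. In PDGFR-β+ cells miR-21a-5p stood at 1760 ± 539 CPM in sham kidneys and reached 16174 ± 5355 at UUO-2, 56033 ± 3578 at UUO-7 and 47458 ± 3716 after reversal, the same order of conditions as miR-155-5p. In Macs miR-21a-5p was at 59984 ± 4872 CPM at UUO-2 and 41973 ± 2541 at UUO-7 against 32749 ± 1987 in sham, while miR-155-5p was higher at UUO-7 than at UUO-2.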

How the data were processed

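Kidneys of 16 mice were sorted into 4 cell types and small RNA was sequenced, giving 63 libraries with a replicate number that marks the mouse. The deposited values were raw read counts per miRNA locus, which the authors made from adapter-trimmed reads (Trim Galore 0.4.1, cutadapt 1.1) aligned with Bowtie through ShortStack to GRCm38 with miRBase loci. How multi-mapping reads were divided and whether strand was used is not given in the sources used here. A pooled column of the same table, larger than the sum of the libraries, was not used.

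Loci were filtered with filterByExpr and scaled with TMM. Changes within a cell type were fitted over its libraries, and differences between cell types, and of a change between them, over all 63 (edgeR 4.0.16 in R 4.3.3, quasi-likelihood, Benjamini-Hochberg adjustment over all loci tested, called below 0.05 with a fold change above 1.5). Arm ratios were compared with exact permutation tests, 2-sided, with a pseudocount of 0.5. log2 CPM used a prior count of 2. Alternatives were DESeq2 1.42.0, a likelihood ratio test, scaling by library size only, no filter, thinning to the smallest depth, other sets of libraries, a replicate block, and leaving out each library or mouse. A further 3, a second leukocyte reference, likeness within PDGFR-β+ libraries, and averages without UUO-7, were chosen after seeing the data.

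Cell types of 1 mouse are paired by animal, since the labels give the same mouse number. Deviations from the group means of the same mouse in another cell type correlated with a median r of 0.0486, with 31 of 93 pairs above 0.1, beside -0.0166 for other mice. Across conditions a number marks different mice (median r -0.0175). No replicate pair agreed within counting noise (chi-square per degree of freedom at least 8.957). On simulated data, 77% to 97% of 4-fold and 44% to 77% of 2-fold changes were called within a cell type. Between cell types 64% and 35% of such differences were called, and 43% and 27% of differences of a change. The p-values measure the spread between mice of 1 condition.

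The named loci were both arms in every comparison, the members of the lists, and the 5 loci of highest r over the group means and over Mac libraries. Members and lists were chosen with earlier results of these data known.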

Additional observations from a re-analysis of the deposited data

Results flagged for a closer look

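A library was looked at again where its gap to the nearest of its group was a larger part of the group's range than Dixon's 95% critical value. This was met in 4 of the 27 groups tested. The critical value flags about 1 in 20 for normally distributed values, a rate that need not hold for miR-155-3p counts near 0. In sham Macs, replicate 1 held 38.6 CPM of miR-155-5p (38.6162) against 91.5 or more in the others. In R-UUO, replicate 4 stood apart for miR-155-3p in both Macs (14.2 CPM, others at most 2.79) and ECs (6.47 CPM, others at most 0.793), which are libraries of the same mouse. The PDGFR-β+ library of that mouse held 7.43 CPM of miR-155-3p, between the others of its group, and its PT library held 0. In sham ECs, replicate 4 had the only read of miR-155-3p (0.190 CPM), and that read alone set the flag.

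The change of miR-155-5p differed between cell types in 11 of 18 tests against sham. Macs minus PDGFR-β+ cells gave -3.92 at UUO-2, -4.52 at UUO-7 and -4.61 after reversal on the log2 scale. PDGFR-β+ cells minus ECs gave 2.50, 3.65 and 3.60, and PDGFR-β+ cells minus PT cells 2.40, 3.60 and 3.16. Macs minus PT cells gave -1.53 at UUO-2 and -1.45 in R-UUO.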

How the results depend on the processing

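All values are log2. In the alternatives other than leaving out a library, 509 of 557 values kept their direction and their side of the threshold, and for no value was a call turned into a call in the opposite direction. Where a value below changed, the cause was not tested unless stated. The rises of miR-155-5p against sham kept their calls under every alternative run, except at UUO-2 in ECs and PT cells. miR-155-3p had 487 reads in all and miR-155-5p had 36 in sham PDGFR-β+ cells. At the depth of the smallest library miR-155-3p did not pass the filter and gave no value.

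With scaling by library size only, where every locus shifts between cell types by up to 1.46 (Macs against ECs), the calls gained were Macs R-UUO against UUO-7 (-0.84), Macs above PDGFR-β+ cells at UUO-7 (1.22) and in R-UUO (1.06), and ECs below PT cells in R-UUO (-0.92). The calls lost were PT cells at UUO-2 (1.19), PDGFR-β+ cells above PT cells in R-UUO (0.64), and Macs against PT cells for the changes at UUO-2 (-0.97) and in R-UUO (-1.03). The sign turned for PT cells R-UUO against UUO-7 (-0.042), for PDGFR-β+ cells against ECs (0.15) and PT cells (-0.48) on average and against PT cells at UUO-2 (-0.63), for ECs against PT cells on average (-0.64), in sham (-0.72), at UUO-2 (-0.53) and at UUO-7 (-0.37), and for the changes of ECs against PT cells at UUO-2 (0.19) and UUO-7 (0.34). Of these the average of ECs against PT cells was called (adjusted p = 0.00242).

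With DESeq2 miR-155-3p at UUO-2 was called in ECs (4.80) and PDGFR-β+ cells (5.09). PDGFR-β+ cells against PT cells in R-UUO (0.74) and the changes of Macs against PT cells at UUO-2 (-1.01) and in R-UUO (-1.23) were not called. Signs turned for PDGFR-β+ cells against PT cells on average (-0.039) and the changes of ECs against PT cells at UUO-2 (0.25) and UUO-7 (0.31). The likelihood ratio test called miR-155-3p at UUO-2 in ECs (4.34) and PDGFR-β+ cells (5.95) and the UUO-2 change of Macs against ECs (-1.42). Without the filter those 3p values were 4.34 and 5.83, and Macs R-UUO against UUO-7 (-0.70) was called. Thinned to the smallest depth, calls were lost for ECs at UUO-2 (1.01), PDGFR-β+ cells above ECs (0.83) and PT cells (0.50) in R-UUO, and the UUO-2 changes of Macs against PT cells (-1.40) and PDGFR-β+ cells against ECs (2.82). Signs turned for PT cells R-UUO against UUO-7 (-0.028), PDGFR-β+ cells against PT cells on average (-0.27) and ECs against PT cells at UUO-7 (-0.14). With scaling and filter over all libraries Macs at UUO-2 turned to -0.10 and miR-155-3p in Macs at UUO-7 (2.48) lost its call. In a fit of the compared cell types alone, PDGFR-β+ cells against ECs turned to 0.053 at UUO-2 and lost the call at UUO-7 (0.93). Without UUO-7 the average of PDGFR-β+ cells against PT cells was -0.25. With a pseudocount of 1 the arm ratio passed for Macs against PDGFR-β+ cells (1.86), Macs against PT cells (1.25) and PDGFR-β+ cells against ECs (-1.31). These tests keep the libraries without a 3p read, where the ratio follows depth.

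The replicate block (mouse as a block between cell types, replicate number as a block between conditions) left all 79 values it was run on with the same direction and call, for example 5.77 for PDGFR-β+ cells at UUO-7 against sham.

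Leaving out each library or mouse moved the following from lowest to highest. miR-155-5p: ECs UUO-2 against sham 1.36 to 1.74, Macs UUO-2 against sham -0.33 to 0.056, PT cells R-UUO against UUO-7 -0.11 to 0.25. miR-155-3p against sham: ECs UUO-7 3.64 to 5.81 and R-UUO 3.43 to 6.00, Macs UUO-7 1.90 to 4.03 and R-UUO 1.45 to 4.33, PDGFR-β+ cells UUO-2 4.94 to 6.33. Macs against PDGFR-β+ cells ran from 0.84 to 1.50 at UUO-2 and from 0.35 to 0.93 at UUO-7, Macs against ECs from 0.88 to 1.09 at UUO-2, and Macs against PT cells from 0.82 to 1.33 in R-UUO. PDGFR-β+ cells against ECs ran from -0.42 to 0.045 at UUO-2, 0.66 to 1.23 at UUO-7 and 0.91 to 1.21 in R-UUO, and against PT cells from -0.13 to 0.18 on average, -0.11 to 0.27 at UUO-2 and 0.68 to 1.18 in R-UUO. ECs against PT cells ran from -0.12 to 0.62 in sham and -0.44 to 0.16 in R-UUO. The changes of Macs against ECs ran from -1.81 to -0.99 at UUO-2 and -1.46 to -0.80 in R-UUO, of Macs against PT cells from -1.63 to -0.996 at UUO-2 and -1.79 to -1.26 in R-UUO, and of ECs against PT cells from -0.41 to 0.30 at UUO-2 and -0.35 to 0.39 at UUO-7. Arm ratios ran from 1.46 to 2.09 for Macs against PDGFR-β+ cells, -1.68 to -1.06 for PDGFR-β+ cells against ECs and -1.04 to -0.67 for PDGFR-β+ cells against PT cells. The number of all loci called moved by over 1.5 times in 27 of the 74 comparisons under some setting, most often when thinned (19 of 59 cases), with 28 cases up and 31 down.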
